A study of Rattus norvegicus with 6 samples.

Results

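Reference genes are transcripts taken to hold a steady level in every sample, against which other RNAs are measured. On a rat lncRNA array, a set of probes shares a name ending and is called the control set here. The 5 reference genes described here, Actb, B2m, Gusb, Hprt1 and Hsp90ab1, were chosen as the genes of these names in that set. They make up 5 of the 38321 probes of the array and each was printed as 30 spots, where nearly all other probes had 1 spot. RNA was measured on 6 arrays in 1 colour, each with RNA from a liver of male Lewis rats at 12 h after liver transplantation (LT). In the BDDLT group (3 livers) the grafts came from donors in which brain death had been induced by raising the intracranial pressure and then maintained before procurement. In the control group (3 livers) the donors were sham-operated, with a drilled skull and a laparotomy alone. In both groups the grafts were perfused with University of Wisconsin solution and implanted orthotopically by cuffs without rejoining the hepatic artery, and livers that were never transplanted were not analysed here. The age of the rats was not given in the sources used here.

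A reference gene serves its purpose only while the treatment leaves it alone, and the usual choices come from very different parts of cell biology. Actin is made by every cell and its gene responds to serum factors and to cell shape, B2m is part of antigen presentation and responds to interferons, and cytosolic HSP90 belongs to the chaperones that cells draw on under stress. Gusb and Hprt1 encode enzymes of lysosomal degradation and of purine recycling.

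All 900 spots of the 5 genes on the 6 arrays were well above background, no spot of any probe was saturated, and 14 of the 900 were marked as outliers by the scanner software and left out. The processed signal, an intensity after background subtraction, ran from 752 to 58610 over the spots that were used. The SD between the spots of a gene on an array lay between 0.029 and 0.086 on the log2 scale, so that the standard error of a gene's mean on an array was at most 0.016. To compare arrays, the log2 signals of a probe's spots were averaged and set relative to the array's 75th percentile over all probes by subtraction. Expressed as a signal, the percentile was 241.7, 251.6 and 272.7 for BDDLT replicates 1, 2 and 3, while for control replicates 1, 2 and 3 it was 216.7, 226.1 and 256.9. A level below is such a scaled log2 value, so a level of 1 means a signal 2 times that of the percentile. The probes bind their targets with unknown strength, and therefore levels were compared between livers and not between genes.

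None of the 5 genes was called different between the groups, where a call required both a change of 2-fold or more and, in limma over 27250 tested probes, an adjusted p (Benjamini-Hochberg) under 0.05. Over all tested probes 222 were called (0.815%), 144 higher and 78 lower in the BDDLT group, and with the replicate number as a block this count was 0 and with the slide as a block 355. At an unadjusted p under 0.05, limma gave 1 of the 5 genes, Hprt1, beside 17.5% of all tested probes, and the methods' t-test with Benjamini-Hochberg adjustment called 0 of the 5. The largest of the 5 log2 differences was 0.50 (Actb), short of the 2-fold limit, so no test could have called one of them. No overlap between the groups was seen for 2 of the 5 genes, Actb and Hprt1, beside 24.5% of the probes with a value on every array. Actb was among the 11.9% of probes with all BDDLT values above all control values, and Hprt1 among the 12.5% with all BDDLT values below. Against those shares neither count is a result about the 5 genes, and each gene is described by its own values. In whole liver, fewer cells of a type and less RNA per cell cannot be told apart.

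Actb encodes beta-actin, the cytoskeletal actin of non-muscle cells. Its mean signal over the spots (a geometric mean, as for the genes below) was 6466, 6819 and 6685 in BDDLT replicates 1, 2 and 3 and 2957, 4490 and 5963 in control replicates 1, 2 and 3. As levels these were 4.74, 4.76 and 4.62 in the BDDLT group and 3.77, 4.31 and 4.54 in the control group. The 3 BDDLT livers lay close together, while the control livers were spread widely, with control replicate 1 far below and control replicate 3 just under the lowest BDDLT liver. The BDDLT mean was 4.71 ± 0.079 (SD, n = 3) and the control mean 4.21 ± 0.39 (SD, n = 3). The difference was 0.50 with a standard error of 0.21, or 1.41-fold, with a 95% interval from 0.994-fold to 2.01-fold and a limma adjusted p of 0.294. It was positive under all 22 alternative settings, between 0.28 and 0.71. Without control replicate 1, the difference was 0.28.

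Hprt1 encodes hypoxanthine-guanine phosphoribosyltransferase, the enzyme that returns hypoxanthine and guanine to the nucleotide pool, and is X-linked. Its mean signal was 3813, 3920 and 3595 in BDDLT replicates 1, 2 and 3 and 5120, 4785 and 4266 in control replicates 1, 2 and 3. The levels were 3.98, 3.96 and 3.72 in the BDDLT group and 4.56, 4.40 and 4.05 in the control group. Every BDDLT liver was below every control liver, and within each group replicate 3 was the lowest. The means were 3.89 ± 0.14 (SD, n = 3) and 4.34 ± 0.26 (SD, n = 3). The difference was -0.45 with a standard error of 0.16, a control level 1.37-fold that of the BDDLT group with a 95% interval from 1.04-fold to 1.80-fold, and the limma adjusted p was 0.228. With the slide as a block the standard error was 0.089 and the limma adjusted p 0.0634. With the replicate number as a block they were 0.089 and 0.112. Over the 22 alternatives the difference stayed below 0, between -0.66 and -0.32.

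Hsp90ab1 encodes the constitutively expressed cytosolic HSP90, a chaperone of kinases and steroid receptors. Its mean signal was 8249, 10770 and 12560 in BDDLT replicates 1, 2 and 3 and 9981, 10910 and 11460 in control replicates 1, 2 and 3. The levels were 5.09, 5.42 and 5.53 in the BDDLT group and 5.53, 5.59 and 5.48 in the control group. Here the control livers lay close together and the BDDLT livers were spread, with BDDLT replicate 1 lowest and BDDLT replicate 3 within the control range. The means were 5.35 ± 0.23 (SD, n = 3) and 5.53 ± 0.057 (SD, n = 3), and the difference of -0.19 with a standard error of 0.14 had a limma adjusted p of 0.580. Its 95% interval, from -0.52 to 0.15, holds 0, and over the 22 alternatives it lay between -0.39 and -0.054.

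B2m encodes beta-2-microglobulin, the light chain of MHC class I molecules. Its mean signal was 47680, 51250 and 54820 in BDDLT replicates 1, 2 and 3 and 43710, 43150 and 44950 in control replicates 1, 2 and 3. Once scaled, the levels were 7.62, 7.67 and 7.65 in the BDDLT group and 7.66, 7.58 and 7.45 in the control group. The groups overlapped, and the highest and the lowest of the 6 livers were only 1.16-fold apart. The means were 7.65 ± 0.023 (SD, n = 3) and 7.56 ± 0.10 (SD, n = 3), with a difference of 0.087, a standard error of 0.093 and a limma adjusted p of 0.738. The 95% interval of the difference ran from 0.907-fold to 1.24-fold. The sign was negative, at -0.12, when the arrays were scaled to the 7 other probes of the control set.

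Gusb encodes beta-glucuronidase, a lysosomal hydrolase that removes glucuronic acid from glycosaminoglycans. Its mean signal was 1142, 1167 and 1026 in BDDLT replicates 1, 2 and 3 and 1013, 947.1 and 821.5 in control replicates 1, 2 and 3. The levels were 2.24, 2.21 and 1.91 in the BDDLT group and 2.22, 2.07 and 1.68 in the control group. The groups overlapped, and replicate 3 was again the lowest liver of each group. The means were 2.12 ± 0.18 (SD, n = 3) and 1.99 ± 0.28 (SD, n = 3), and the difference of 0.13 with a standard error of 0.18 had a limma adjusted p of 0.805. Its 95% interval ran from 0.809-fold to 1.49-fold. The sign turned when the arrays were scaled to the 7 other control probes, at -0.071, and without control replicate 3, at -0.024. Between livers of the same number the Gusb difference was 0.016, 0.147 and 0.235 for replicates 1, 2 and 3. With the replicate number as a block its standard error was 0.085 and its limma adjusted p 0.434.

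**Figure D1:**
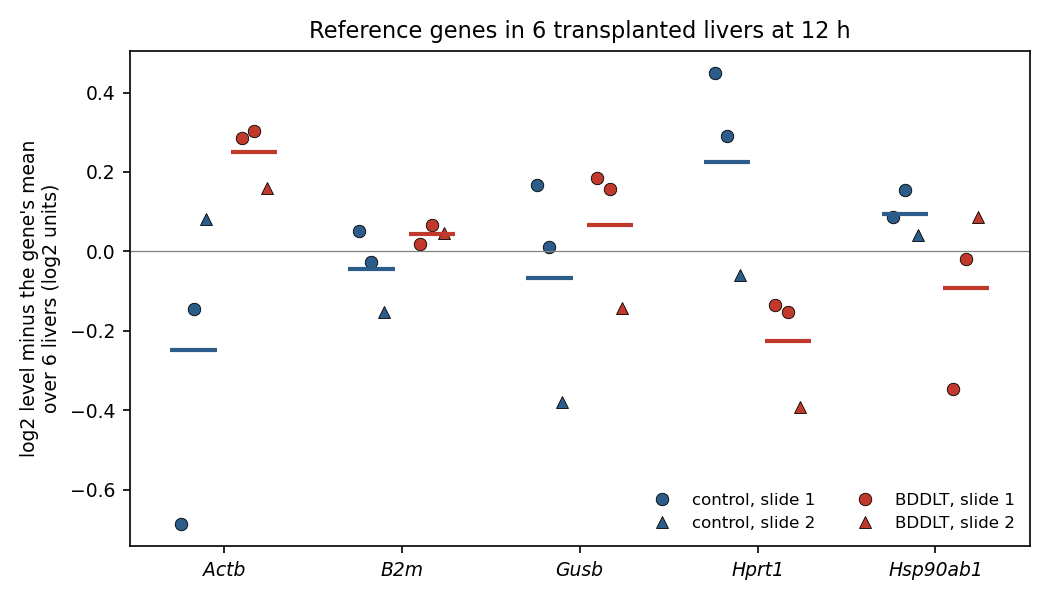
Level of each reference gene in each liver, as the scaled log2 value minus the mean of that gene over the 6 livers (vertical axis, log2 units), with points for single livers, bars for group means, colours for the groups and shapes for the slides. The BDDLT values of Actb lie above all control values, those of Hprt1 lie below, and the groups overlap for B2m, Gusb and Hsp90ab1.

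The log2 table that the authors normalized between arrays gave the same picture on its own scale. There Actb had 12.60, 12.64 and 12.61 in the BDDLT group and 11.69, 12.23 and 12.52 in the control group, and Hprt1 had 11.83, 11.86 and 11.72 in the BDDLT group and 12.51, 12.33 and 12.04 in the control group. Again the groups did not overlap for these genes, with differences of 0.47 and -0.49. B2m had 15.57, 15.61 and 15.63 in the BDDLT group and 15.61, 15.47 and 15.33 in the control group, a difference of 0.13 with overlap. Hsp90ab1 had 12.94, 13.27 and 13.50 against 13.49, 13.53 and 13.44, and Gusb had 10.12, 10.11 and 9.90 against 10.14, 9.97 and 9.64. Both overlapped, with differences of -0.25 for Hsp90ab1 and 0.13 for Gusb.

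The arrays lay on 2 slides as the scan identifiers of the files show, with replicates 1 and 2 of both groups on slide 1 and replicate 3 of both groups on slide 2, so slide and group are not confounded. A reference gene is used to take out differences between arrays, and so the slides were compared too, with the group kept in the model. Gusb was 1.31-fold lower on slide 2 (log2 difference -0.39, standard error 0.092, limma adjusted p 0.0799) and Hprt1 was 1.27-fold lower (-0.34, standard error 0.094, adjusted p 0.107). Actb differed by 0.18 (adjusted p 0.622), Hsp90ab1 by 0.095 (adjusted p 0.692) and B2m by -0.081 (adjusted p 0.574). None of the 5 passed an adjusted p under 0.05, beside 4.95% of all tested probes. With 2 livers on slide 2, a liver's own level and the slide cannot be told apart for a single array. Slide 2 held only the livers numbered 3, so the slide and that pair of livers cannot be told apart either. The model for the slides took livers of the same number as independent.

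Within the slides, the difference between the groups was uneven for Actb and Hsp90ab1. On slide 1 the Actb difference was 0.71 and on slide 2 it was 0.079. For Hsp90ab1 it was -0.30 on slide 1 and 0.046 on slide 2, where a single liver of each group was present. The Hprt1 difference had 1 sign, with -0.51 on slide 1 and -0.33 on slide 2. B2m gave 0.031 and 0.20, and Gusb gave 0.082 and 0.24. Whether the differences on the slides differ from each other was not tested.

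The spread of a reference gene was taken as its SD over all 6 livers, groups pooled, which is a property of its single probe as well as of the gene. B2m had an SD of 0.082, Hsp90ab1 of 0.18, Gusb of 0.22, Hprt1 of 0.31 and Actb of 0.37 log2 units, while the median over the tested probes with all values was 0.23. Only 5.93% of those probes had a smaller SD than B2m, against 36.2% for Hsp90ab1, 48.7% for Gusb, 65.9% for Hprt1 and 74.4% for Actb. Most other probes had a single spot and a lower signal. With 1 spot of a gene at a time in place of the mean, the median SD was 0.090 for B2m, 0.18 for Hsp90ab1, 0.23 for Gusb, 0.31 for Hprt1 and 0.375 for Actb, so that averaging over spots made little difference. The signal mattered more. Among probes whose mean level lay within 1 log2 unit of the gene's, 18.3% had a smaller SD than B2m, 54.0% than Hsp90ab1, 64.7% than Gusb, 81.8% than Hprt1 and 90.6% than Actb. From the lowest to the highest liver, Actb covered 1.99-fold, Hprt1 1.79-fold, Gusb 1.48-fold and Hsp90ab1 1.41-fold. Within groups, where a shift between groups does not enter, the pooled SD was 0.075 for B2m, 0.17 for Hsp90ab1, 0.21 for Hprt1, 0.24 for Gusb and 0.28 for Actb. With 6 livers, neighbours in this order such as Gusb and Hprt1 cannot be separated.

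Single livers also carried these values. Without control replicate 1 the SD of Actb was 0.182, below the 0.246 of Hprt1, the 0.233 of Gusb, the 0.195 of Hsp90ab1 and the median of 0.218 over the probes, and 40.3% of probes had a smaller one. Without BDDLT replicate 1 the SD of Hsp90ab1 was 0.0643, below the 0.0914 of B2m, and without control replicate 3 that of Gusb was 0.141 and that of B2m 0.037. Leaving out single livers, single spots and probes of like level were chosen after seeing the data. The order depended in part on the scale. Without scaling the SD of Hprt1 was 0.199, below the 0.206 of Hsp90ab1, and with median scaling that of Gusb was 0.345 and that of Hprt1 0.384, against 0.378 for Actb. Scaled to the 7 other control probes, Hprt1 had 0.408 and Actb 0.288. With all 6 livers B2m had the lowest SD of the 5 under 8 of 9 other ways of processing, and with median scaling had 0.186, against 0.180 for Hsp90ab1.

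The ratio of 2 genes on an array is unchanged by any scaling that subtracts a single value from the whole array, though not by quantile normalization. For each of the 10 pairs the log2 ratio was taken on every array and expressed relative to its mean in the control group, and the groups were compared with a two-sided exact permutation test, which with 3 against 3 livers cannot go below 0.10. The groups did not overlap for 4 of the 10 pairs, Actb over Hprt1, Actb over Hsp90ab1, B2m over Hprt1 and Gusb over Hprt1, each with an exact p of 0.10 and 0.25 after Benjamini-Hochberg adjustment over the 10 pairs. Of all pairs of probes with a value on every array, 23.1% had no overlap. The 10 pairs are not independent, since 3 of these 4 share Hprt1 and 2 share Actb. This exact test therefore could not give an adjusted p under 0.05 for any pair, and a paired exact test over the 3 replicate numbers cannot go below 0.25. Between livers of the same number the difference had 1 sign in all 3 for 8 of the 10 pairs and both signs for Actb over B2m and Actb over Gusb, and it had 1 sign for 46.7% of all pairs of probes. With 10 pairs made from 5 genes, neither count is a result about these genes. Both shares were added after seeing the data. A shift in a ratio shows that its 2 genes changed unequally, not which of them changed.

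Within groups, the pair of Gusb and Hprt1 had the tightest ratio, while over all 6 livers its SD was 0.322, against 0.166 for B2m over Gusb. Relative to the control mean, the log2 ratio of Gusb over Hprt1 was 0.61, 0.60 and 0.54 in BDDLT replicates 1, 2 and 3 and 0.013, 0.013 and -0.026 in control replicates 1, 2 and 3. Both genes had lower levels on slide 2, yet their ratio hardly moved inside a group, with an SD of 0.038 in the BDDLT group and 0.023 in the control group. Between the groups the mean ratio differed by 0.58, or 1.5-fold, and each of the 9 differences between a BDDLT and a control liver lay between 0.53 and 0.64. Under 10 alternatives the difference was between 0.57 and 0.62. After removal of the group means, the levels of the 2 genes had a Pearson correlation of 0.997 over the 6 livers, while over the 6 livers with groups left in it was 0.313. The pair was picked for its tight ratio, so the high correlation within groups in part restates that choice. For the other pairs the correlation within groups lay between -0.893 (Actb and B2m) and 0.832 (B2m and Hprt1). These correlations describe 6 arrays that share 2 slides.

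The ratio of B2m over Hprt1 was 0.42, 0.49 and 0.71 in BDDLT replicates 1, 2 and 3 and -0.13, -0.049 and 0.18 in control replicates 1, 2 and 3. The mean difference was 0.54, or 1.45-fold, and the livers of the same number differed by 0.55, 0.54 and 0.53. The ratio of Actb over Hprt1 had the largest mean difference of the 10 pairs, 0.95 or 1.93-fold. It was 0.90, 0.93 and 1.03 in BDDLT replicates 1, 2 and 3, against -0.66, 0.042 and 0.62 in control replicates 1, 2 and 3. The control livers alone covered a wider range than the distance between the groups, and without control replicate 1 the difference was 0.62. Actb over Hsp90ab1 was 0.98, 0.67 and 0.42 in the BDDLT group and -0.43, 0.045 and 0.38 in the control group, with a mean difference of 0.69 but a nearest pair of livers only 0.033 apart.

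In the other 6 pairs the groups overlapped. B2m over Gusb differed by -0.045 between the groups (exact p 0.60) and ranged from -0.19 to 0.20 over the livers, which makes it the pair with the smallest difference. Between livers of the same number it differed by -0.048, -0.054 and -0.035, and the sign of the mean difference turned in 5 of its 10 alternatives, among them quantile normalization (0.0099). Hprt1 over Hsp90ab1 differed by -0.27 (exact p 0.40), B2m over Hsp90ab1 by 0.27 (exact p 0.20, the lowest of the 9 differences between single livers being -0.00468, and without overlap after quantile normalization and in the deposited table), Gusb over Hsp90ab1 by 0.32 (exact p 0.30), Actb over Gusb by 0.37 (exact p 0.50) and Actb over B2m by 0.41 (exact p 0.20). Single livers carried much of these values. Without control replicate 1, Actb over Gusb differed by 0.031 and Actb over B2m by 0.15. Without BDDLT replicate 1, Gusb over Hsp90ab1 differed by 0.13 and B2m over Hsp90ab1 by 0.16, and without BDDLT replicate 3, Hprt1 over Hsp90ab1 differed by -0.093. Between livers of the same number, B2m over Hsp90ab1 differed by 0.40, 0.27 and 0.15, Gusb over Hsp90ab1 by 0.45, 0.32 and 0.19, and Hprt1 over Hsp90ab1 by -0.15, -0.27 and -0.38, each with 1 sign. For Actb over B2m, the values were 0.47, 0.45 and 0.32 in the BDDLT group and -0.53, 0.090 and 0.44 in the control group, so that control replicate 3 was as high as the BDDLT livers.

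**Figure D2:**
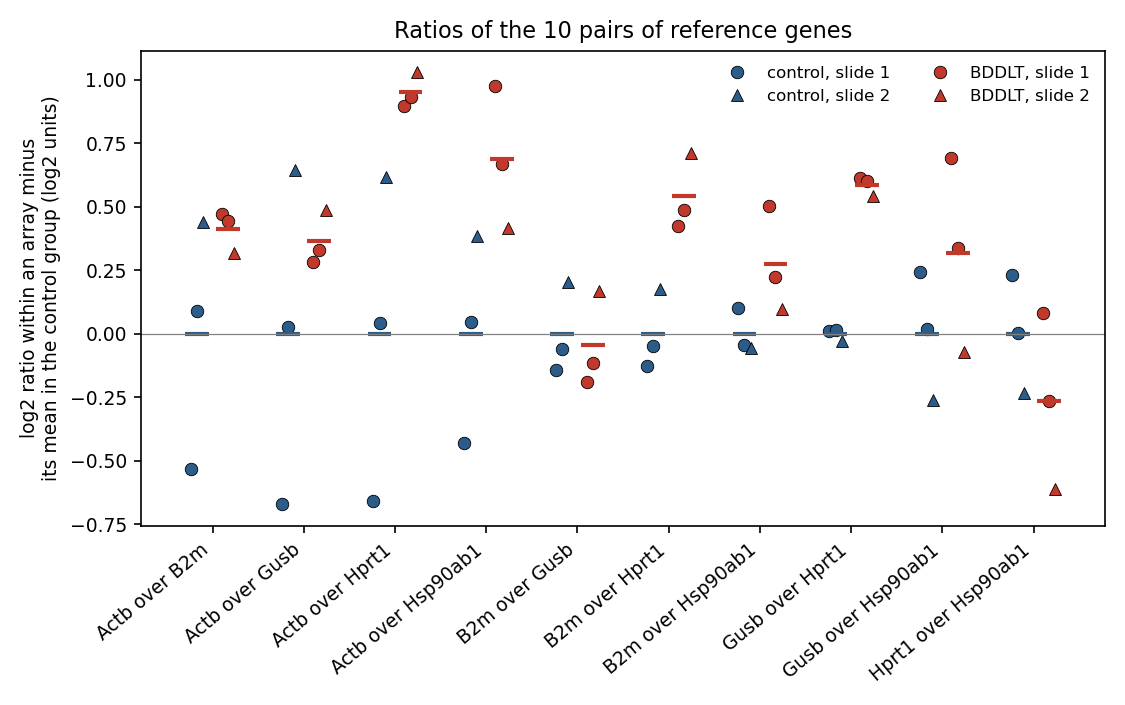
Log2 ratio of each pair of reference genes on each array minus the mean of that ratio in the control group (vertical axis, log2 units), with points for single livers, bars for group means and shapes for the slides. The groups do not overlap for Actb over Hprt1, Actb over Hsp90ab1, B2m over Hprt1 and Gusb over Hprt1, and the points of Gusb over Hprt1 lie between 0.54 and 0.61 in the BDDLT group and between -0.026 and 0.013 in the control group.

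A stability measure built from such ratios is the mean, over the other genes, of the SD of a gene's log2 ratio to each of them across the 6 livers, where a small value means that a gene moves with the others. Among the 5 genes it was 0.272 for B2m, 0.323 for Gusb, 0.334 for Hsp90ab1, 0.402 for Hprt1 and 0.501 for Actb. Gusb and Hsp90ab1 were close to each other. The same measure over all 12 probes of the control set gave 0.256 for B2m, 0.313 for Gusb, 0.330 for Hsp90ab1, 0.426 for Actb and 0.428 for Hprt1. Other probes of the set were close to B2m, with 0.259 for Rplp1, 0.264 for Ldha, 0.265 for Rpl13a and 0.282 for Pgk1. The rest of the set lay between 0.378 and 0.595. Like the SD over the 6 livers, this measure contains any shift between the groups. Taken within groups it was 0.212 for B2m, 0.233 for Hprt1, 0.252 for Gusb, 0.282 for Hsp90ab1 and 0.407 for Actb. The last place of Actb among the 5 genes rested on 1 liver. Without control replicate 1 its value was 0.284, between the 0.276 of Gusb and the 0.306 of Hsp90ab1, while Hprt1 had 0.322 and B2m 0.214. This measure was not among the planned results, and its values within groups and without single livers were chosen after seeing the data.

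The other 7 probes of the control set had differences between the groups from -0.16 to 0.88, with a median of 0.058, and the 5 genes had a median of 0.087, beside -0.025 over all tested probes. None of the 7 was called by limma, and for 3 of the 7 the groups did not overlap, a count to be read beside the 24.5% of all probes. Of a list of 19 other common reference genes, 5 had a probe with a gene name, all of them in this control set. The ribosomal protein gene Rplp1 had levels of 8.53, 8.54 and 8.56 in BDDLT replicates 1, 2 and 3, against 8.52, 8.63 and 8.66 in control replicates 1, 2 and 3. Its SD over the 6 livers of 0.059 was smaller than that of B2m, and the groups overlapped. Rpl13a, another ribosomal protein gene, had 7.31, 7.36 and 7.32 in the BDDLT group and 7.10, 7.31 and 7.40 in the control group. Pgk1, a glycolytic kinase, had 6.65, 6.64 and 6.47 in the BDDLT group and 6.74, 6.79 and 6.71 in the control group. Every BDDLT value of Pgk1 was below every control value, with a mean difference of -0.16 and a limma adjusted p of 0.472. Sdha, a subunit of succinate dehydrogenase, had 6.74, 6.49 and 6.06 in the BDDLT group and 6.58, 6.32 and 5.95 in the control group, and like Gusb and Hprt1 it was lower on slide 2 (-0.53, limma adjusted p 0.0814).

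Ldha, the lactate dehydrogenase A gene, was read by 2 probes. The probe of the control set, with 30 spots, gave 8.96, 8.95 and 8.98 in the BDDLT group and 8.77, 8.98 and 9.06 in the control group. A further probe with 10 spots gave 6.13, 6.29 and 6.42 in the BDDLT group and 5.37, 6.09 and 6.45 in the control group. Both placed control replicate 1 lowest and control replicate 3 highest, with a Pearson correlation of 0.938 over the 6 arrays. The spread differed, however, at an SD of 0.095 for the first and 0.40 for the second, so a gene's apparent steadiness here was also a property of its probe. The brightest probes of the control set, those of Ldha, Rplp1, B2m and Rpl13a, also had its smallest SDs, at 0.095, 0.059, 0.082 and 0.106. Whether differences were flattened at high signal was not tested. A signal is also uncertain where near-identical copies exist, as for Actb with its gamma-actin relative and with processed pseudogenes, since probe sequences were not used here.

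The remaining 2 of the 7 probes carried RefSeq accessions that matched no gene name. The probe for XM_340999 had levels of 3.10, 3.62 and 3.77 in BDDLT replicates 1, 2 and 3, against 2.21, 2.73 and 2.91 in control replicates 1, 2 and 3. All BDDLT livers were higher, by 0.89, 0.89 and 0.86 between livers of the same number, and the mean difference of 0.88 (1.84-fold, limma adjusted p 0.154) was the largest of the 12 probes of the set. The probe for XM_345576 had 0.37, 0.54 and 0.56 in the BDDLT group and 0.21, -0.0013 and -0.33 in the control group, again without overlap and with an adjusted p of 0.166. These 2 are named as the ones at the upper end of the range, chosen after their values were seen.

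Scaling to a gene shifts every probe by that gene's own difference between the groups, so the medians below restate the differences given above. The size of the effect on the calls was measured by testing the whole array again with each of the 5 genes in turn as the only scale, without a block. Scaled to Actb, the median log2 difference over the 27250 probes became -0.53 and 343 probes were called, of which 11.1% were higher in the BDDLT group and 104 were among the 222 called on the 75th percentile scale. Scaled to Hprt1, the median became 0.43 and 636 probes were called, of which 96.2% were higher and 162 were among the 222. With the 75th percentile as the scale, 64.9% of the 222 calls were higher and the median was -0.025.

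Scaled to B2m, 126 probes were called, 48.4% of them higher, with a median of -0.11 over all probes. Of these 126, 116 were among the 222. Scaled to Gusb, 35 were called, 45.7% of them higher, with a median of -0.16, and 33 of the 35 were among the 222. Scaled to Hsp90ab1, 186 were called, 80.1% of them higher, with a median of 0.16, and 139 of the 186 were among the 222. The mean of the 5 genes gave 154 calls, 61.7% higher, with a median of -0.041, and 151 of these were among the 222. On this scale the median of all probes was closer to 0 than on the scale of any single gene. That follows from averaging genes whose differences had opposite signs, and does not measure how well the mean serves as a scale. The mean of the 7 other control probes gave 323 calls, 31.6% of them higher, with a median of -0.23, and unscaled log2 signals gave 242 calls, 79.3% of them higher, with a median of 0.11.

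These counts depended on the model as well. When the replicate block was added to the model, no probe was called on the 75th percentile scale, 0 on the scale of B2m and 0 on that of Gusb, where limma gave 5697 and 6692 probes at p under 0.05 before adjustment, while 105 were called on the scale of Hsp90ab1, 1297 on that of Hprt1 and 1771 on that of Actb. A single gene's variation between the arrays is added to every probe when it serves as the scale. With Actb and the block, limma estimated 1 common variance for all probes, so the count of 1771 does not rest on the spread of each probe. These blocked fits on single genes were chosen after seeing the data.

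**Figure D3:**
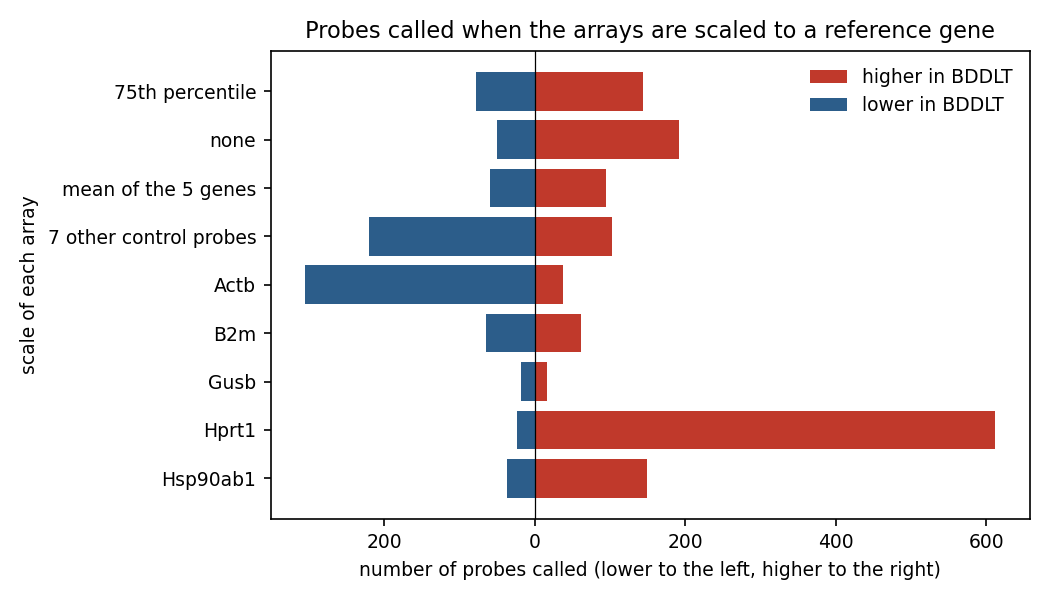
Number of probes called between the BDDLT and control groups (horizontal axis, limma without a block, adjusted p under 0.05 and a fold change of at least 2, lower to the left and higher to the right) for each choice of array scale (vertical axis). Scaling to Actb gives 305 lower and 38 higher calls, scaling to Hprt1 gives 24 lower and 612 higher calls, and the 75th percentile gives 78 lower and 144 higher calls.

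Each gene was also set beside the 32 other detected probes with a gene name, to find the 2 whose levels followed it most closely over the 6 arrays. Hsp90ab1 was followed by Cyp2e1, a cytochrome P450 of pericentral hepatocytes (Pearson r 0.947, n = 6), and by Cdh2, which encodes N-cadherin (r 0.936). Cyp2e1 had levels of 5.27, 6.41 and 6.97 in BDDLT replicates 1, 2 and 3, against 7.02, 7.24 and 7.37 in control replicates 1, 2 and 3. It had BDDLT replicate 1 as the lowest liver, as did Hsp90ab1, and covered 4.28-fold over the 6 livers. Cyp2e1 was the only 1 of 9 hepatocyte markers with a named probe, and none of 12 leukocyte and Kupffer cell, 4 endothelial, 4 stellate cell or 4 bile duct markers had one. Shifts in cell composition beside the reference genes were therefore not tested.

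Hprt1 was followed by Eif4b, a translation initiation factor gene (r 0.976, n = 6), and by Mex3c, which encodes an RNA-binding ubiquitin ligase (r 0.908). Eif4b had levels of 0.90, 0.90 and 0.78 in BDDLT replicates 1, 2 and 3, against 1.58, 1.44 and 1.15 in control replicates 1, 2 and 3, without overlap and with control replicate 3 lowest of its group. Gusb was followed by Pdcd10 (r 0.991, n = 6) and by Ndfip1 (r 0.963), an adaptor of ubiquitin ligases. Pdcd10 had 2.75, 2.66 and 2.42 in the BDDLT group and 2.73, 2.56 and 2.26 in the control group, with replicate 3 lowest in both groups as for Gusb. B2m was followed by Nat1, an arylamine acetyltransferase gene (r 0.863, n = 6), and by Gusb (r 0.798). Actb was followed by Ldha on its 10-spot probe (r 0.872, n = 6) and by Odf2l (r 0.860). These are the best of 32 probes over 6 arrays that share slides and groups, and they are given as a description.

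The lists chosen to set the genes in their pathways had no named probe on this array. This held for 16 genes of MHC class I and antigen presentation beside B2m, 16 of HSP90 chaperones and partners beside Hsp90ab1, 14 of the actin cytoskeleton beside Actb, 12 of purine salvage and synthesis beside Hprt1 and 15 lysosomal hydrolases beside Gusb. Most probes, 37277 of 38321, carried only a number of the manufacturer, and these pathways were not analysed here.

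Gusb and Hprt1 moved together inside each group while their ratio shifted between the groups. This pattern was not shown to be particular to the 2 genes, since Pdcd10 followed Gusb (r 0.991) and Eif4b followed Hprt1 (r 0.976). For description, the 250 bases before the transcription starts of Gusb and Hprt1 are given from the RefSeq promoter table of the GRCr8 assembly. There B2m, Gusb, Hprt1 and Hsp90ab1 were matched by symbol. The Gusb stretch is chr12:32337057-32337306 and the Hprt1 stretch is chrX:137655494-137655743, both on the plus strand. Capitals mark GGGCGG, the core of the GC box bound by Sp1, searched on both strands.
Gusb: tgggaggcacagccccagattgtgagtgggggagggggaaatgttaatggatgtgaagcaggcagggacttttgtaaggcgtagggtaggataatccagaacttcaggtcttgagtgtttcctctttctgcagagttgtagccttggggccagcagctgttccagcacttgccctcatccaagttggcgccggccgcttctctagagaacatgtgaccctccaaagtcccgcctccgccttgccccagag
Hprt1: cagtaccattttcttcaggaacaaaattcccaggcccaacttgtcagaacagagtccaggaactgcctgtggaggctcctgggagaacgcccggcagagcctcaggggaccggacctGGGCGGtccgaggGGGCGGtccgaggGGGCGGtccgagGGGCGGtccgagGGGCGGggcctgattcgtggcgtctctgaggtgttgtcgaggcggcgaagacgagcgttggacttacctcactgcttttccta
The Hprt1 stretch held 5 matches and the Gusb stretch 0. Over 33469 rat promoters cut to the same length, 30.5% held at least 1 match and 1.72% held 5 or more. Hsp90ab1 also held 5 and B2m held 0. TATAAA, the core of the TATA box, searched on both strands, was found in 12.9% of promoters, and of these 4 genes B2m held 1 match and the others 0. A match describes the letters only, and it was not tested whether a factor binds there.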

How the data were processed

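The authors deposited, for each of 6 arrays, the output of Agilent Feature Extraction 11.0.1.1 per the labels' processing notes, in which each spot has a 1-colour intensity and is marked where detected, saturated or an outlier. A table of log2 values came with them, deposited after the authors had normalized it between the arrays by a method not given in the sources used here, with 52 of the 38321 probes lacking a value, and this table served as an alternative only. The processed signal, an intensity the deposited files give after background subtraction, was put on the log2 scale and averaged over a probe's spots, then set relative to the array's 75th percentile. Outliers and spots marked as array controls were left out. The probes called the control set here are not marked as array controls and were kept. Probes well above background (in 0.5 or more of their spots) on 3 or more arrays were fitted by limma 3.58.1 (lmFit, eBayes; R 4.3.3), a step first tested on simulated data. All adjusted p values of single genes are from limma with Benjamini-Hochberg adjustment over 27250 probes, unless another test is named.

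Groups came from the labels, which do not say whether replicates are separate animals, so p-values measure the spread between these samples. The groups share replicate numbers, and the study's methods speak of pairs. Deviations from the group means had correlations across probes of 0.139, 0.297 and 0.531 for replicates 1, 2 and 3. These cannot tell pairing from the slide, since both livers numbered 3 lay on slide 2. Only livers of the same number were compared in this way. That the numbers pair the samples was thus an assumption, made only where a replicate block or livers of the same number are named. The 5 genes were to be named with every value, with the other control probes by range, 2 most similar named probes for each gene, and the members of the lists that had a named probe. The genes and lists were chosen with earlier results of these data known. Gene names came from matching RefSeq accessions without versions to the GRCr8 gene table, which named 39 probes of 38 genes, 33 of them detected. The array annotation is of an older build, so no gene coordinates were taken. The alternatives were other scales, the deposited log2 values, another background correction (normexp on median signals, offset 50), medians of spots, outlier spots kept, other detection filters, blocks, another variance model, the methods' t-test and each array left out. The number of arrays limits the precision.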

Additional observations from a re-analysis of the deposited data

How the results depend on the processing

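Of the 5 genes, 0 were called under each of the 22 alternatives, the replicate block among them. The largest difference under any of them was 0.71, for Actb on slide 1 alone, short of the 1 log2 unit that a call requires. These counts of 0 were therefore fixed by the fold limit. No adjusted p of the 5 was under 0.05 either, the lowest being the limma value of 0.0634 for Hprt1 with the slide as a block. With the replicate block the limma adjusted p was 0.112 for Hprt1, 0.264 for Actb, 0.434 for Gusb, 0.447 for Hsp90ab1 and 0.604 for B2m. The difference of B2m turned to -0.116 and that of Gusb to -0.0709 when the arrays were scaled to the 7 other control probes, a scale that moved the median of all probes to -0.229. With each array left out in turn, Gusb lay between -0.0235 and 0.250, Actb between 0.281 and 0.665, Hprt1 between -0.596 and -0.341, Hsp90ab1 between -0.277 and -0.0602 and B2m between 0.0323 and 0.135. The ratio of B2m over Gusb differed by 0.0459 with normexp, by 0.00989 with quantile normalization, by 0.00513 in the deposited table, and by -0.152 to 0.0558 with each array left out. For the ratios, quantile normalization and the deposited table were added after seeing the data. B2m over Hsp90ab1 differed by 0.380 with quantile normalization and by 0.382 in the deposited table, and in both its groups no longer overlapped (exact p 0.10). The other 9 ratios kept their sign under their alternatives, and Gusb over Hprt1 (0.572 to 0.618) and B2m over Hprt1 (0.455 to 0.630) moved little. With each array left out, Actb over Gusb lay between 0.0312 and 0.688, Actb over B2m between 0.147 and 0.632, Actb over Hprt1 between 0.623 and 1.26, Gusb over Hsp90ab1 between 0.134 and 0.514, B2m over Hsp90ab1 between 0.160 and 0.363 and Hprt1 over Hsp90ab1 between -0.439 and -0.0928. The cause of these turns was not tested. Leaving the group out of the model cannot move a slide difference here, since each group had the same split over the slides, and the 5 adjusted p values stayed above 0.05.

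The count of probes called over the whole array, 222, was less steady. It was 0 with the replicate block, where limma gave 6033 probes at p under 0.05 before adjustment, 355 with the slide as a block, 134 on slide 1 alone, 143 with median scaling, 118 with normexp, 22 without a detection filter, 73 by the methods' t-test, and between 0 and 146 with each array left out (0 without control replicate 2 and likewise without BDDLT replicate 1 or 2, 48 without control replicate 1, 120 without BDDLT replicate 3 and 146 without control replicate 3). Scaled to Actb, B2m, Gusb or Hprt1 alone it was 343, 126, 35 or 636, and with the replicate block as well 1771, 0, 0 or 1297, and 105 for Hsp90ab1. The SD over the livers moved for B2m to 0.138 without scaling, 0.186 with median scaling and 0.124 with normexp, for Gusb to 0.345 with median scaling, and for Hprt1 to 0.199 without scaling. Without control replicate 1 it was 0.182 for Actb, without BDDLT replicate 1 it was 0.0643 for Hsp90ab1, and without control replicate 3 it was 0.141 for Gusb and 0.037 for B2m.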
